A study of Sus scrofa with 16 samples.

Results

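miR-203 and miR-205 are a pair of microRNAs known from stratified squamous epithelium, and their reads were followed here through the endometrium of 15 sows on day 10 of pregnancy. Both were chosen by their measured levels, with earlier results of the same libraries known. They are 2 of 107 seed families, that is, sets of microRNAs with the same bases 2 to 8, that were counted in these libraries. miR-203 was counted as reads of 20 to 26 nt whose first 20 bases equal its mature 3p sequence, or that sequence begun 1 base earlier or later. miR-205 was counted as reads of the same lengths whose first 20 bases equal its mature 5p sequence. The rule took 170006 reads as miR-203 and 42686 reads as miR-205, which is 0.184% and 0.0462% of the 92411446 reads of 18 to 26 nt in all libraries.

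The animals were adult sows, and no breed or genotype is given in the sources used here. The 4 control sows (sows 1 to 4) took the ethanol carrier alone, and the others took oestradiol-17β by mouth, dissolved in that carrier, from insemination on. 3 sows (5 to 7) were given 0.05 µg per kg body weight per day, 4 sows (8 to 11) were given 10 µg and 4 sows (12 to 15) were given 1000 µg. All sows were pregnant, so the comparison is between doses of added oestradiol on top of early pregnancy. The endometrium of sow 7 was extracted 2 times, and both libraries were summed into 1 sow. Levels are given as RPM, reads per 1000000 reads of 18 to 26 nt.

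A microRNA guides the silencing complex to messenger RNAs that pair with its seed, so a read that begins 1 base earlier or later carries another seed. In the skin of mouse and human, miR-203 marks the layers above the basal layer and lowers the p63 protein of epidermal stem cells, while miR-205 is strong in the basal layer and, with the miR-200 family, lowers the ZEB proteins that repress epithelial genes. The endometrium is lined by a simple, not a squamous, epithelium, which also forms its glands.

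The sequences below show how the members were told apart and what a shift of 1 base does to the seed, which is in capitals. They are the deposited reads themselves, written as DNA from 5′ to 3′, since the mature sequence was taken from the most abundant read with the family's seed. For miR-203 the unshifted form is followed by the most abundant reads that begin 1 base later and 1 base earlier. For miR-205 the leading read, its variant with another last base and its later start are shown.
miR-203, unshifted: gTGAAATGtttaggaccactag
miR-203, unshifted, 20 nt: gTGAAATGtttaggaccact
miR-203, 1 base later: tGAAATGTttaggaccactagt
miR-203, 1 base earlier: tGTGAAATgtttaggaccact
miR-205, unshifted: tCCTTCATtccaccggagtctgt
miR-205, unshifted, last base A: tCCTTCATtccaccggagtctga
miR-205, 1 base later: cCTTCATTccaccggagtctgt

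The group of reads with the unshifted first 20 bases held 93.6% of all reads with the miR-203 seed and 97.2% of those with the miR-205 seed. The most abundant single miR-203 read was the later one, which begins with T, with 46802 reads, against 30614 reads of the unshifted 22 nt read. The leading miR-205 read had 21037 reads, 49.3% of its unshifted form.

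Just outside the rule stood 2668 reads of miR-203 that begin 2 bases later, 1119 that begin 2 bases earlier and 222 unshifted reads of 18 to 19 nt. Later-start reads of 18 to 19 nt also fall outside the rule, and their number is not given. A further 4396 reads kept the seed and had 1 different base elsewhere among the first 20. Reads with a different base inside the seed were not looked for. For miR-205 the rule left out 687 reads that begin 1 base later, 9 that begin 1 base earlier and 66 unshifted reads of 18 to 19 nt. It also left out 1073 reads that kept the seed and had 1 different base elsewhere among the first 20. Each of these counts is small beside the counts inside the rule.

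Library depth was 4497096 to 14945018 reads, of which 46.7 to 78.4% were 18 to 26 nt long. By their length profiles the sows fell into 3 classes, set after the data were seen, which cut across the doses: class A holds sows 1, 2, 5, 8, 9 and 12, class B sows 3, 4, 7, 10, 11 and 15, and class C sows 6, 13 and 14. Class C holds no control sow.

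The name squamous epithelium was checked against 7 other seed families listed for stratified epithelium. miR-944, which in human lies within the gene for p63, had 2.25 to 9.18 RPM over the sows, and miR-184, which is known from corneal epithelium, had 0.564 to 3.29 RPM, so that both were low in every sow. miR-31, which keratinocytes also make, had 186 to 810 RPM with a median of 621 RPM, above most sows' miR-205. Over the 15 sows Pearson's r of its log2 level was 0.71 with miR-205 (Spearman's rho 0.54) and -0.47 with miR-203 (rho -0.30). miR-31 was lowest in sow 13 (186 RPM) and control sow 4 (298 RPM), so both values rest in part on them. 5 of the 7 families had a median of at least 10 RPM, and their sum was led by families that many tissues share, with a median of 12485 RPM for miR-125, 9222 RPM for miR-34 and miR-449 and 3403 RPM for miR-24. Summed over the list, the level ran from 17604 to 31025 RPM in control sows, from 25053 to 30512 RPM at 0.05, from 20834 to 31056 RPM at 10 and from 21992 to 30519 RPM at the 1000 µg dose. The 6 families listed for simple epithelium, which include miR-200, miR-141 and miR-182, summed to 28019 to 34074 RPM in control sows, 27190 to 33479 RPM at 0.05, 26623 to 34392 RPM at 10 and 32850 to 41183 RPM at the 1000 µg dose. The list thus holds both families near 0 and abundant ones that other tissues share, and since it does not mark a squamous epithelium as such, miR-203 and miR-205 are called here by their names alone. In bulk tissue, more cells that make a microRNA and more of it per cell cannot be told apart.

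miR-203 fell into a low and a high range of levels that did not follow the dose. Among the control sows it had 809 RPM in sow 1, 4064 RPM in sow 2, 784 RPM in sow 3 and 4942 RPM in sow 4. At 0.05 µg/kg/day it had 1058, 992 and 758 RPM in sows 5, 6 and 7. The control sows thus held both the highest level of the 15 sows and the second lowest, while the 3 sows at 0.05 lay close together.

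At 10 µg/kg/day miR-203 had 1044, 1255, 999 and 825 RPM in sows 8 to 11. At 1000 µg/kg/day it had 3000, 2362, 898 and 3831 RPM in sows 12 to 15. 10 sows lay between 758 and 1255 RPM, the other 5 between 2362 and 4942 RPM, and none between. The gap was 1.88-fold, while neighbouring sows elsewhere in the order differed by at most 1.28-fold. The 5 sows above the gap were control sows 2 and 4 and sows 12, 13 and 15 at 1000 µg/kg/day. The same 5 sows were highest under each of 5 ways of scaling and counting, in which the gap was 1.68-fold to 2.11-fold.

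**Figure D1:**
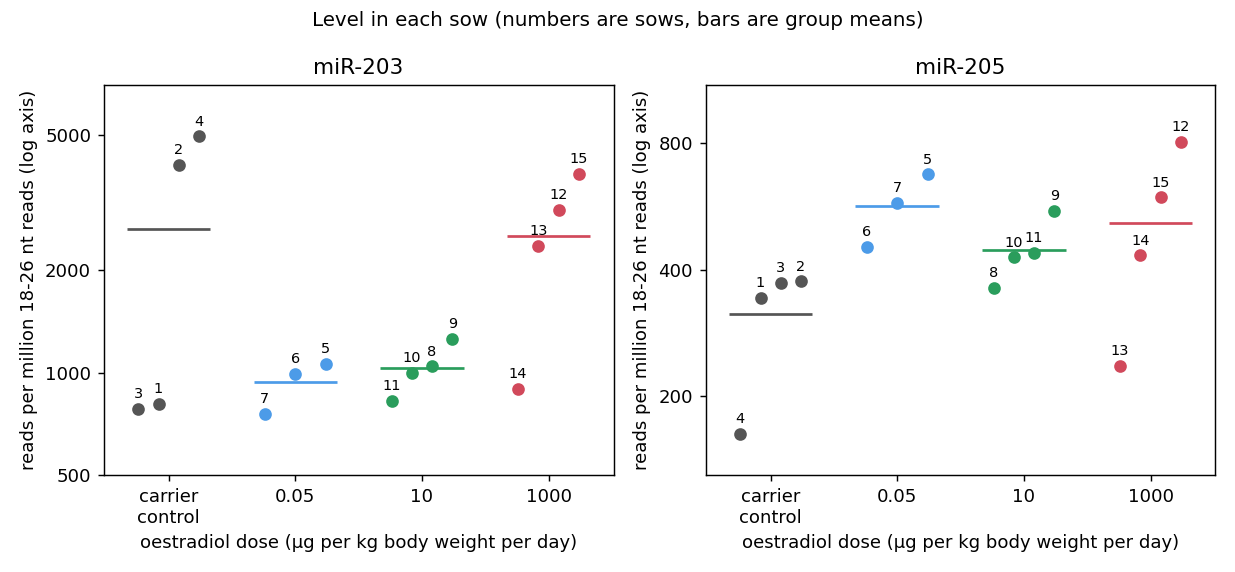
Level of miR-203 and miR-205 in each sow, in RPM on a log axis, by oral oestradiol dose. Each point is 1 sow with its number and the bars are group means. miR-203 is above 2000 RPM in control sows 2 and 4 and in sows 12, 13 and 15, while every sow at 0.05 lies above every control sow for miR-205.

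The mean miR-203 level was 2650 ± 2170 RPM in control sows, 936 ± 158 RPM at 0.05, 1031 ± 177 RPM at 10 and 2523 ± 1239 RPM under the 1000 µg dose (SD, n = 4, 3, 4 and 4). The coefficient of variation was 81.9% in control sows, 16.9% at 0.05, 17.2% at 10 and 49.1% at the 1000 µg dose. On the log2 scale, the mean at 0.05 stood at -1.03, that at 10 at -0.89 and that at 1000 at 0.23, each relative to the control mean. Every dose group overlapped the control group, because control sows 1 and 3 lay near or below the lowest sow of each dose and control sows 2 and 4 above the highest. The lower means at 0.05 and 10 thus rest on control sows 2 and 4. Without control sow 2 the log2 differences were -0.66 at 0.05 and -0.52 at 10, and without control sow 4 they were -0.57 and -0.43. Leaving out control sow 1 or 3 instead widened that at 0.05 to -1.44 and -1.45. At 1000 the difference changed sign, to -0.17, -0.19 and -0.03, without control sow 1, control sow 3 and sow 15. Since the pair was selected on these levels, their differences between doses are given without a test.

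miR-205 was less abundant and spread less, and its order among the sows was another one. It had 344, 376, 371 and 163 RPM in control sows 1 to 4. At 0.05 µg/kg/day it had 674, 453 and 577 RPM in sows 5 to 7. Each of these 3 sows lay above each control sow, the nearest being 453 RPM in sow 6 against 376 RPM in control sow 2. The order of the groups was the same under all 5 ways of scaling, but the gap narrowed to 260 against 252 when the reads were counted per 1000000 of all deposited reads.

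At 10 µg/kg/day miR-205 had 363, 552, 428 and 439 RPM in sows 8 to 11. At 1000 µg/kg/day it had 806, 237, 433 and 594 RPM in sows 12 to 15, which hold both the highest level of all sows and the second lowest. Both of these groups overlapped the control group. The mean level was 313 ± 101 RPM in control sows, 568 ± 111 RPM at 0.05, 445 ± 78.3 RPM at 10 and 517 ± 242 RPM under the 1000 µg dose (SD, n = 4, 3, 4 and 4). Relative to control, the mean log2 level was higher by 0.92 at 0.05, by 0.57 at 10 and by 0.66 at the 1000 µg dose. Without control sow 4, the lowest, these were 0.63, 0.28 and 0.37. At 1000 the difference was 0.40 without sow 12 and 0.99 without sow 13.

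The separation of miR-205 at 0.05 is of a kind that also occurred elsewhere. Among all 9951 groups of reads with the same first 20 bases that could be tested, 223 had every sow at 0.05 above every control sow, which is 2.24%. The 2 extractions of sow 7 also differed in miR-205, with 702 RPM in extraction b and 384 RPM in extraction a, a difference of 0.87 on the log2 scale. That is more than the SD of log2 miR-205 between sows of 1 group, 0.51. With extraction a alone, sow 7 stood at 384 RPM, just above the highest control sow at 376 RPM. For miR-203 the extractions gave 789 RPM in b and 709 RPM in a, a log2 difference of 0.15, against an SD of 0.87 between sows of 1 group.

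Among the 98 families that averaged 10 RPM or more, miR-203 had the widest spread of log2 level over the 15 sows, with an SD of 0.98, and also the widest within dose groups, with 0.87. The next were miR-223, a microRNA of granulocytes, with 0.73, and the family of miR-1 and miR-206, known from muscle, with 0.69. miR-205 was the ninth with 0.58, and the median family had 0.30. The level of miR-203 here includes its shifted starts, while miR-205 and the other families were counted without them, so the measures are not alike. Over the 15 sows the coefficient of variation was 65.5% for unshifted miR-203 and 89.3% for its later start. Within dose groups miR-223 had an SD of 0.78. miR-203 was not ranked on its unshifted reads alone, which spread less, so its first place within dose groups may not hold for them. The first place of miR-203 is also not independent of its choice, since results on its level were known when it was chosen.

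**Figure D2:**
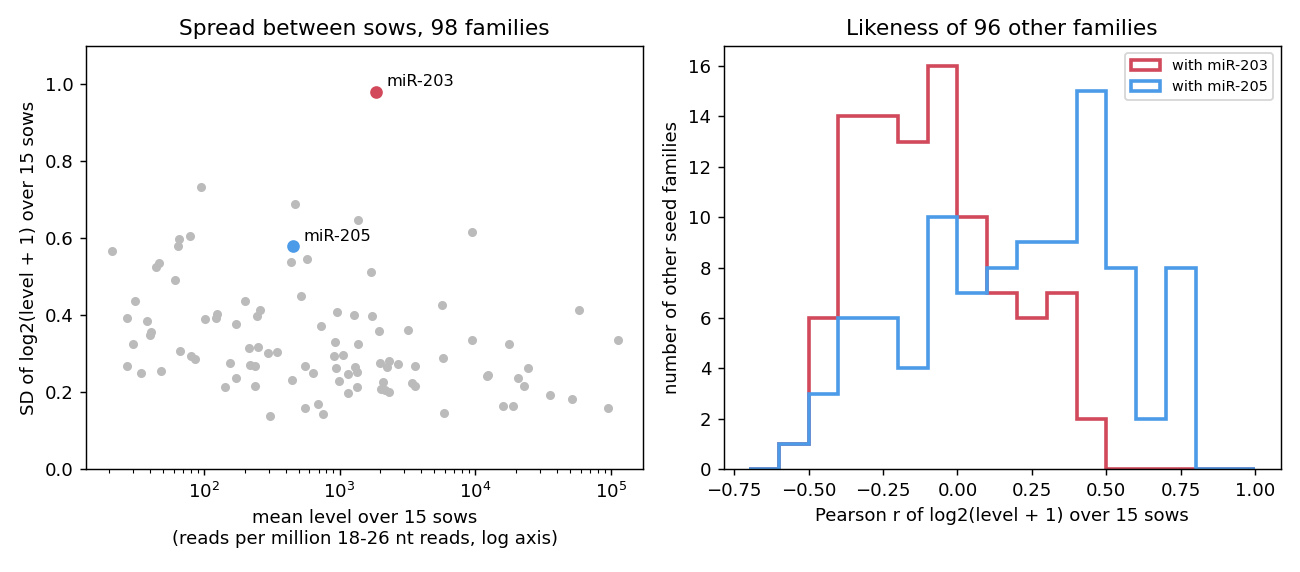
Left, SD of log2(RPM + 1) over 15 sows against mean level on a log axis for 98 seed families, 1 point each. Right, number of the 96 other families by their Pearson r with miR-203 (red) and with miR-205 (blue) over the 15 sows. miR-203, which alone is counted with its shifted starts, has the widest spread, and no other family reaches an r of 0.50 with it. Several exceed 0.75 with miR-205.

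High miR-203 did not go with high miR-205. The 5 sows with the most miR-203 held 376, 163, 806, 237 and 594 RPM of miR-205 (sows 2, 4, 12, 13 and 15), and so included both the highest and the 2 lowest miR-205 levels. The ratio of miR-203 to miR-205 ran from 1.31 in sow 7 to 30.4 in sow 4. Because miR-203 fell into separate ranges, a correlation was computed over the 10 sows below the gap only. That cut was made on miR-203 itself after its levels were seen, and it narrows the range of miR-203. The pair was also chosen by these levels. The r and p-values here are therefore descriptive and hold for these 10 sows alone. An r over all 15 sows is not given, and it need not have the same sign. There Pearson's r of the log2 levels was 0.34 (permutation test, two-sided, p = 0.326) and Spearman's rho was 0.25 (permutation p = 0.490). The adjusted permutation p over 2 relations was 0.525 for Pearson's r. Without the 2 sows farthest from the median of miR-203, r was 0.54 (permutation p = 0.155), and after subtracting each dose group's mean it was 0.29 (permutation p = 0.427). Leaving out single sows moved r between 0.19 (without sow 9) and 0.63 (without sow 7), and it was 0.55 with levels per all deposited reads. With 10 sows set apart in this way, these values cannot decide whether the levels move together within the low range. 5 sows above the gap were too few for a correlation.

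**Figure D3:**
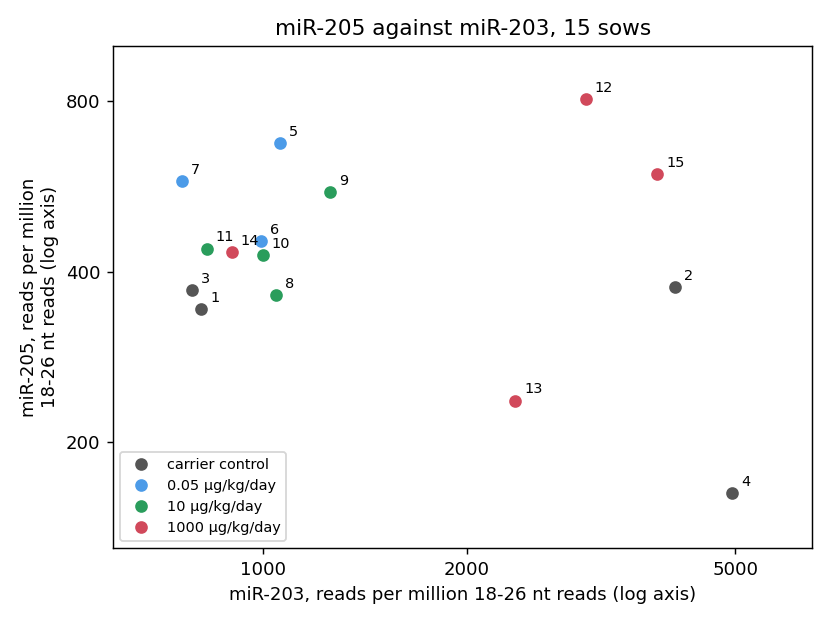
Level of miR-205 against level of miR-203 in 15 sows, both in RPM on log axes, coloured by oestradiol dose and numbered by sow. The 5 sows to the right of the gap span 163 to 806 RPM of miR-205, which is the whole range of the 15 sows.

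The families whose levels were most like those of either microRNA were not the same, which is given here as a description over the 15 sows, with no test. All levels share the library totals as their divisor, and the r with miR-203 also reflects its 2 ranges. With miR-203 the highest r among 96 families was 0.49 for miR-423 5p, then 0.41 for miR-182, 0.40 for miR-122, 0.40 for the family of miR-200b, miR-200c and miR-429, and 0.38 for miR-146. miR-182 and miR-200 are epithelial microRNAs, miR-122 is that of liver and miR-146 is known from the inflammatory response. miR-122 had at most 36.9 RPM in any dosed sow and 80.7 RPM in control sow 2, and miR-146 had at most 608 RPM in any dosed sow and 1208 RPM in control sow 4, so that either r rests in part on 1 sow. No family followed miR-203 closely. Among 3010 single read groups, the 6 with the highest r were forms of miR-203 itself (r of at least 0.90), and the next had an r of 0.72.

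With miR-205 the highest r was 0.78 for let-7, the most abundant of the 5 with a mean of 94378 RPM. miR-450 and miR-503, which share a cluster on the X chromosome in human and mouse, followed with 0.77 each, then miR-199 5p, known from stroma, and miR-361 with 0.76 each. Spearman's rho was 0.81 for let-7 and 0.77 for miR-503, but 0.51 for miR-450, 0.46 for miR-199 5p and 0.59 for miR-361. miR-199 5p was lowest in sow 13 (9883 RPM) and control sow 4 (10804 RPM), the sows lowest in miR-205, so its r rests in part on them. The lowest r of the 96 was that of miR-375, known from pancreatic islets and secretory epithelium, with -0.52, while its Spearman's rho was -0.20. miR-375 was highest in sow 13 (2958 RPM) and in control sow 4 (2699 RPM), the same sows in which miR-205 was lowest. Sow 13 was also highest in miR-143, a microRNA of smooth muscle and stroma, with 122190 RPM against a median of 56743 RPM. The part of such differences in tissue make-up in the levels of the pair was not tested.

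Across all read groups the doses gave no call. Of 9951 groups tested with edgeR's quasi-likelihood test and Benjamini-Hochberg adjustment, at the 0.05 µg dose 0 passed an adjusted p of 0.05, which is 0% of those tested. The same test called 0 (0%) at 10 and 0 (0%) at the 1000 µg dose. At an unadjusted p under 0.05, edgeR counted 256 groups at 0.05, 317 at 10 and 445 at the 1000 µg dose, of 9951 tested. Each count is below the share of 0.05 that such a threshold would pass with no difference between groups. DESeq2 called 0, 1 and 0 groups in the same order of doses. In simulated counts with the real means and library sizes, 9547 groups were tested with edgeR at 1000 µg/kg/day. The test recovered 10.6% of 94 groups changed 2-fold and 78.9% of 95 changed 4-fold. A further 7 calls fell on unchanged groups.

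In the same edgeR fit each of the 7 stratified epithelium families stood as its most abundant read group, of which 6 passed the filter on low counts and 0 were called at any dose, with an adjusted p of 0.9997 or above. The leading miR-184 group had 46 reads and was not tested. With all reads of a seed summed, 107 families were tested with edgeR and 0 were called at any dose. The median log2 difference of the 6 leading groups from control was 0.16 at 0.05, 0.04 at 10 and -0.06 at the 1000 µg dose, beside -0.01, 0.03 and 0.01 over all read groups. The leading read group of miR-31, known to be induced in keratinocytes of healing skin, had 675 CPM at 0.05 and 530 CPM in control, a log2 difference of 0.35 (95% CI -0.34 to 1.04). At 1000 µg/kg/day it had 448 CPM against 530 CPM in control, a log2 difference of -0.24 (95% CI -0.88 to 0.40), so that both intervals include 0. CPM here is relative to the TMM-scaled library. The leading groups of the 6 simple epithelium families likewise had 0 calls. At 1000 µg/kg/day all 6 lay above control, with a median log2 difference of 0.30. Among them the 95% CI, which is not adjusted for the number of groups, excluded 0 for miR-96 alone (0.47, CI 0.02 to 0.92).

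Many of the miR-203 reads, by contrast with those of miR-205, began 1 base away from the unshifted start. Over all libraries 88609 reads began 1 base later, 77168 were unshifted and 4229 began 1 base earlier. Of the earlier ones, 4101 had T as the added first base. The share of reads with either shift was 53.2 ± 6.27% in control sows, 45.1 ± 3.04% at 0.05, 48.4 ± 1.09% at 10 and 53.5 ± 5.38% under the 1000 µg dose (SD, n = 4, 3, 4 and 4). For miR-205 the same share was 1.52 ± 0.309% in control sows, 1.49 ± 0.267% at 0.05, 1.89 ± 0.160% at 10 and 1.54 ± 0.108% at the 1000 µg dose. The shift was thus a property of miR-203 in every sow, at 42.5 to 60.3%, against 1.19 to 2.03% for miR-205.

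None of the tests between doses in these shares passed. 12 exact two-sided permutation tests compared the shifted share and the mean read length of both microRNAs at each dose with control. The smallest p was 0.114 for the miR-203 share at 0.05 µg/kg/day (exact permutation test), with an adjusted p of 0.549, and no test of these group sizes could give a p below 0.0286. A single one of the 12 could therefore not reach an adjusted p of 0.05, and the tests do not show that the shares are alike. The mean length of miR-203 reads was 21.89 nt in control sows, 21.84 nt at 0.05, 21.85 nt at 10 and 21.90 nt at the 1000 µg dose, and that of miR-205 reads was 22.84, 22.91, 22.85 and 22.84 nt in the same order.

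The miR-203 start also differed between single sows. The later start took 55.2% of miR-203 reads in control sow 2, 56.0% in control sow 4, 52.6% in sow 12, 48.7% in sow 13 and 58.1% in sow 15. In the 10 sows with less miR-203 it took 39.99 to 49.7%, with control sow 3 at the top. The sows with much miR-203 thus had the 4 highest shares and, in sow 13, one inside the range of the others. The extractions of sow 7 differed as much as many sows did, with 43.0% in b and 50.9% in a. Within the 10 sows below the gap, Pearson's r between log2 level and shifted share was -0.23 (permutation p = 0.525) and Spearman's rho was -0.22 (permutation p = 0.534). Without the 2 sows farthest from the median level r was -0.43 (permutation p = 0.278), and centred on dose it was -0.36 (permutation p = 0.308). The adjusted permutation p over the 2 relations was 0.525. These 10 sows were again set apart by the level itself, so the p-values are descriptive.

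The 3′ end of the miR-203 reads also differed between sows. Among reads that begin 1 base later and run 1 base past the end of the unshifted 22 nt form, the last base was T in 67.8 to 80.3%, as in the read printed above, A in 6.29 to 21.1% and C in 9.37 to 14.2%. The reference genome base at this place was not looked up here, so which of these ends is templated is not given. The share ending in A was 9.30% in control sow 2, 6.29% in control sow 4, 7.66% in sow 12, 6.58% in sow 13 and 7.30% in sow 15. In the other 10 sows it was 13.5 to 21.1%, so that the 5 sows with the most miR-203 were the 5 lowest here. The extractions of sow 7 gave 17.1% in b and 18.2% in a, a difference smaller than that between the 2 ranges.

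The unshifted reads held a second such measure. The read of 20 nt, printed above, took 14.1% of unshifted miR-203 reads in control sow 2 and 14.1% in control sow 4. It took 13.04% in sow 12, 15.1% in sow 13 and 11.96% in sow 15. In the other 10 sows its share was 17.6 to 22.1%, and the extractions of sow 7 had 20.8% in b and 18.9% in a. Both measures set apart the same 5 sows as the level did. The A end of the unshifted reads did not: it took 33.4%, 26.5%, 27.2%, 34.3% and 31.0% of the reads ending at that place in sows 2, 4, 12, 13 and 15, and 33.5 to 48.6% in the other sows, so that sow 5 of the low range lay below sow 13. These measures are counted within the same reads as the level and were looked at after the level was known, so no test is attached to them.

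miR-205 did not show this pattern. Its reads of 23 nt ended in A in 26.4%, 16.9%, 19.1%, 16.2% and 19.2% of cases in sows 2, 4, 12, 13 and 15, and in 14.5 to 23.8% in the other 10 sows. Its last base was T in 60.8 to 71.2%, as in the leading read above.

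**Figure D4:**
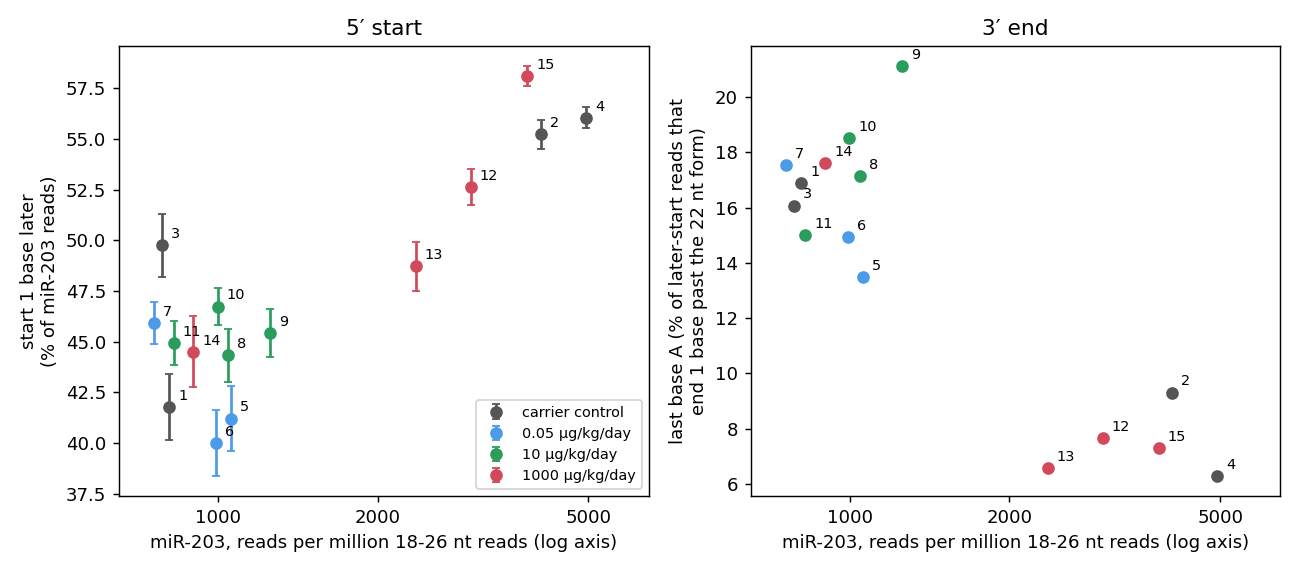
Left, share of miR-203 reads that begin 1 base later, with 95% Wilson intervals for counting error, and right, share of later-start reads ending in A 1 base past the 22 nt form, each in percent against the miR-203 level in RPM on a log axis, for 15 numbered sows coloured by dose. Sows 2, 4, 12, 13 and 15 lie to the right of the gap, with 6.29 to 9.30% ending in A, against 13.5 to 21.1% in the other sows.

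The length classes did not hold the high miR-203 sows apart. Sows 2 and 12 were in class A, sows 4 and 15 in class B and sow 13 in class C. miR-203 ran from 809 to 4064 RPM in class A, from 758 to 4942 RPM in class B and from 898 to 2362 RPM in class C, and the share of the later start from 41.2 to 55.2%, from 44.9 to 58.1% and from 39.99 to 48.7% in the same order. For miR-205 the ranges were 344 to 806 RPM in class A, 163 to 594 RPM in class B and 237 to 453 RPM in class C. Within class A the log2 difference of miR-203 from control was -0.78 at 0.05, -0.66 at 10 and 0.73 at the 1000 µg dose. Within class B it was -1.38, -1.12 and 0.96 in the same order of doses. These values compare 2 control sows with 1 sow each at 0.05 and 1000 and 2 sows at 10, so they have little weight. Class C, which has no control sow, gave no value, and the b extraction of sow 7 would by itself fall in class C.

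The opposite arms of both hairpins were found in small numbers, chosen as the reads with the arm's seed that pair best with the main read. They are shown because they bear on which arm of each hairpin was kept.
miR-203 5p: aGTGGTTCttaacagttcaaca
miR-205 3p: gATTTCAGtggagtgaagctca
miR-203 5p had 28 reads in all libraries, 0.0165% of the reads of both arms, and was absent from the reads of sows 1, 3, 9 and 14. miR-205 3p had 139 reads, 0.319% of both arms, and was seen in every sow. The 3p arm of miR-203 and the 5p arm of miR-205 thus made up nearly all reads of their hairpins in each of the 15 sows. The duplex with the main read was predicted at -20.2 kcal/mol for miR-203 and at -24 kcal/mol for miR-205. For miR-203 the next best candidate reached -19.5 kcal/mol, so that its 5p read is the less certain of the pair. At these counts no difference between doses in the opposite arms could be read.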

How the data were processed

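Small RNA libraries of 15 sows (16 libraries, TRIzol RNA, NEBNext kit, per the labels' protocols) were analysed. The deposited files hold raw counts of each distinct read, with no normalization by the authors. The submitters' processing notes name the tool FastQC and 4 genome builds (GRCm38, UMD3.1, GRCh37.p5 and Sscrofa10.2), with no role. The aligner and adapter trimming are not given in the sources used here.

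The members and lists were chosen with earlier results of these data known. No miRNA reference sequence was used, so the mature form is the most abundant first 20 bases among reads of 20 to 26 nt with the family's seed, and family names rest on the seed alone. The fit planned per annotated miRNA ran instead on 9951 read groups with the same first 20 bases, of 23707 with at least 30 reads, which passed edgeR's filterByExpr and held 84.3% of the 18 to 26 nt reads, and on 107 seed families. The edgeR 4.0.16 quasi-likelihood fit (R 4.3.3, robust, TMM factors 0.804 to 1.17) took all 15 sows, and DESeq2 1.42.0 was an alternative. The fit was tested on simulated data. Per-sow values, permutation tests (100000 resamples, or exact) and figures used Python 3.11.15, numpy 2.4.6, scipy 1.17.1, pandas 2.3.3 and matplotlib 3.10.9. Duplexes were folded with RNAduplex 2.7.2. Likeness was Pearson's r of log2(RPM + 1). The correlation of the pair, planned over 15 sows, was computed over the 10 sows below the gap in miR-203.

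The 8 lists stand for stratified and simple epithelium, ciliated cells, stroma and smooth muscle, red cells, leukocytes, striated muscle and liver. Beyond the pair and both opposite arms, named families are the 5 with the highest r with each member and those of the stratified list. miR-375 and the families of the spread ranking were named after their values were seen. The length classes are A (less than 8% of the reads at 17 to 19 nt), B (of the rest, less than 5% at 40 nt or longer) and C (all others). Each sow is a separate animal per the labels. Reads carry no molecular identifiers, so intervals cover counting error only. The planned share of 3′ ends off the hairpin could not be formed and is replaced by the last base of the reads, and the scaling by annotated reads is replaced by reads with a listed seed.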

Additional observations from a re-analysis of the deposited data

Results flagged for a closer look

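Among 24 sets of 4 sows looked at for a lone value, 2 were picked out, and chance picks out about 1 in 20 such sets. Control sow 4 had the lowest miR-205 level, 163 RPM, far below the other control sows at 344 to 376 RPM. The same sow held the highest miR-203 level of all 15 sows. At 1000 µg/kg/day, sow 14 had 17.6% of later-start miR-203 reads ending in A, while the other sows of that dose had 6.58 to 7.66%. Sow 14 was also the sow of that dose with the least miR-203, at 898 RPM.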

How the results depend on the processing

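Of 100 level differences under other settings, 97 kept their direction; the 3 that did not were miR-203 at 1000 µg/kg/day minus control with 1 sow left out. Leaving out sows gave 0.63 to 1.07 for miR-205 at 0.05 and -0.19 to 0.70 for miR-203 at 1000. The miR-205 difference at 1000 was 1.27 within class B, against 0.66 over all sows. The count of called groups at 10 µg/kg/day was 1 with DESeq2, 1 with no filter on low counts, and 0 to 1 without single sows (1 without sow 8), and at 1000 it was 1 with only the compared groups in the fit. The other 37 counts stayed at 0. Of 216 isoform differences under other settings, 197 kept their sign, and their tests could not singly reach an adjusted p of 0.05. Many of the 216 could not change, because a sow left out of another dose group does not enter the difference. Taking 1 extraction alone for the re-extracted sow likewise fixed the values at 10 and 1000, here and among the level differences. The 197 include these fixed values, so they overstate how stable the signs are. Of 30 relations 27 kept their sign, and the r of miR-203 level with shifted share changed sign, to 0.38 per all deposited reads and to 0.24 centred on length class. No paired analysis was possible because the sows carry different numbers in each group. Sow numbers of 3 or 4 limit what any dose comparison can show, and the members' RPM is relative to reads whose make-up also varies.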

Other observations

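Summed over their lists, the other cell type families varied between sows as follows. Stroma and smooth muscle families had 63185 to 141906 RPM, the ciliated family (miR-34 and miR-449, also in the stratified list) 3522 to 15635 RPM, red cell families 971 to 3776 RPM, leukocyte families 578 to 1534 RPM, striated muscle families 195 to 1360 RPM and the liver family 22.8 to 80.7 RPM. No family of these lists was called at any dose by edgeR's quasi-likelihood test over the 107 families or over the read groups. Of the 107 families, 5 had an unadjusted edgeR p under 0.05 at 0.05, 6 at 10 and 6 at the 1000 µg dose. These counts are near the share of 0.05 that such a threshold would pass with no difference between groups.

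The single calls under other settings fell on 3 read groups, none with a listed seed, and are described here after their values were seen. One was called at 10 µg/kg/day both by DESeq2 and by edgeR with no filter on low counts. It had 78 reads in all, 0.187 to 3.57 RPM in sows at 10 and 0 reads in the control sows. Another had 1.37 to 8.46 RPM at 10 and 7.61 to 14.4 RPM in control sows, and was called by edgeR only without sow 8. The third had 4.27 to 7.68 RPM at 1000 µg/kg/day and 0 reads in the control sows, and was called by edgeR only with those 2 groups in the fit.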
